A study of Homo sapiens with 2 samples.

Results

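Deubiquitinases remove ubiquitin from proteins. The USP family is the largest group, and the genes described here are 38 deubiquitinase genes without a USP name. The genes were listed by family membership, with earlier results of these data known. They fall into 7 classes, with 15 OTU, 4 UCH, 4 Josephin, 9 JAMM and 4 MINDY genes, together with CYLD and ZUP1. All 38 are protein-coding genes of RefSeq, out of 20037 on the chromosomes. A member was counted as having a NeuroD1 peak when a called peak overlapped its gene body or lay up to 3 kb from either end.

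NeuroD1 binding was profiled by ChIP-seq in IMR-32, a MYCN-amplified neuroblastoma cell line, in cells of wild-type genotype with no treatment named. The series holds 1 ChIP library, labelled with a NeuroD1 antibody, and 1 input library of chromatin taken without antibody, which was not analysed here. The study's text, like the labels, calls these data NeuroD1 ChIP-seq, while its ChIP-seq protocol names an H3K27Ac antibody, and the peaks were used as labelled. The study also reports that NeuroD1 motifs were enriched at its NeuroD1 binding sites. There was no replicate, so no test between samples was possible, and every value below describes this 1 library. In all, 6183 peaks were listed. Their enrichment is given as a fold, the ChIP pileup at the summit relative to the local background, and its median was 6.79. A median of 17 ChIP reads covered the summits, and the depth of the whole library is unknown.

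NeuroD1 is a basic helix-loop-helix transcription factor of neuronal and endocrine cells that binds E-boxes, short DNA sites of the form CANNTG. The OTU, UCH, Josephin, MINDY, CYLD and ZUP1 enzymes are cysteine proteases, whereas active JAMM enzymes use a zinc ion. Some enzymes trim chains that mark proteins for the proteasome, and others cut linear or K63-linked chains that carry signals. Several JAMM proteins work as parts of large complexes, such as the COP9 signalosome and the translation factor eIF3, and some of these have lost the catalytic residues.

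NeuroD1 peaks were called at 7 of the 38 genes, namely UCHL1, UCHL5, JOSD2, MPND, EIF3F, CYLD and MINDY2. This is 18.4% of the members, beside 21.4% of all protein-coding genes (4283 of 20037). Long genes had a peak more often than short ones, with 13.3% of genes under 10 kb, 20.0% of genes of 10 to 30 kb, 23.8% of genes of 30 to 100 kb and 33.4% of genes over 100 kb. At the shares of these length bins, 8.31 members would hold a peak (21.9%). At this 3 kb rule the count of members therefore lay close to the background, and nothing particular to the family is read from it. Each of the 7 genes had a single peak, as did 79.1% of protein-coding genes with a peak and a listed strand. Other limits gave other members. With a −log10 q of at least 5 there were 4 (EIF3F, MPND, UCHL1 and UCHL5), or 10.5%, beside 17.2% of all protein-coding genes. At an enrichment of 5-fold or more there were 6, without CYLD, or 15.8% beside 19.7%. When the peak had to overlap the gene body there were 3 (MINDY2, UCHL1 and UCHL5), or 7.89% beside 16.0%. Up to 1 kb from the gene there were the same 7, or 18.4% beside 20.1%. Up to 10 kb COPS6 joined them, giving 21.1% beside 25.1%. The same 7 had a peak summit within 3 kb, or 18.4% beside 21.3%. When a peak counted only for the gene whose end lay closest, there were 5, without UCHL5 and JOSD2, or 13.2% beside 17.8%. The peak of MPND lay 416 bp from its gene and was the most distant one counted, and the nearest one not counted lay 9278 bp from COPS6.

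Peaks were also counted in each class. None of the 15 OTU genes had a peak, while the UCH class had peaks at 2 of 4 genes. The Josephin class had 1 of 4, the JAMM class 2 of 9 and the MINDY class 1 of 4. CYLD had a peak and ZUP1 had none. At the shares of protein-coding genes of like length, 3.29 OTU, 0.809 UCH, 0.704 Josephin, 2.02 JAMM and 1.01 MINDY genes would hold one. For CYLD and ZUP1 the number is 0.238 each. The JAMM and MINDY counts lay close to these numbers, and the OTU count lay furthest from its own. The differences between classes were not tested, since genes are not replicates.

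All 7 peaks lay near the start of their gene, though some lay nearer to the start of a neighbour. The summit was within 1 kb of the RefSeq gene start in 7 of 7 members, and of the 3517 protein-coding genes with a peak and a listed strand this held for 63.4%. The median distance from summit to gene start was 178 bp in the members and 281 bp in all these genes. Of the 7 peaks, those of UCHL1 and MINDY2 covered the start, those of CYLD, EIF3F, JOSD2 and MPND lay upstream of it, and that of UCHL5 lay downstream.

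**Figure D1:**
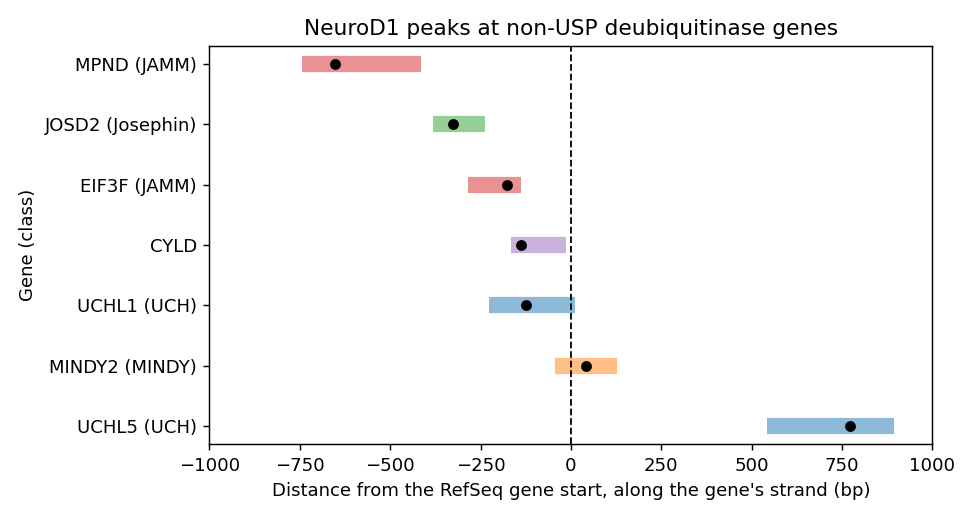
Position of each peak (bar) and its summit (dot) in bp from the RefSeq gene start (dashed line), with positive values inside the gene. The summits ran from 654 bp upstream at MPND to 771 bp downstream at UCHL5, and all 7 lay within 1 kb of the start.

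UCHL1 is a ubiquitin hydrolase that is very abundant in neurons and is known as the neuronal marker PGP9.5. It carried the peak with the highest fold enrichment of the 38 genes, on chromosome 4 from 41256701 to 41256938 (hg38). The summit was enriched 11.1-fold at a −log10 q of 16.7, where q is the p-value of the peak caller adjusted over the genome. It held 22 ChIP reads, and the exact Poisson interval of that count at 95% was 13.8 to 33.3. At a fixed background of 1.04 the bounds are equal to 7.13-fold and 16.5-fold. The peak ranked 641 of 6183 by fold enrichment and was above 89.0% of all peaks. UCHL1 lies from 41256928 to 41268455 on the forward strand, so the peak reached from 227 bp before to 10 bp after its start, with the summit 125 bp before it. The peak also overlapped UCHL1-DT, a non-coding transcript on the other strand whose start lies 201 bp from that of UCHL1. The summit was 76 bp from the UCHL1-DT start, nearer than to the start of UCHL1.

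The 250 bases upstream of the UCHL1 start are shown because this promoter held the strongest peak and an E-box close to its summit. They are RefSeq sequence of GRCh38.p14 on the forward strand at chr4:41256678-41256927, with E-boxes in capitals, and the peak covered them from base 24 to base 250.
UCHL1: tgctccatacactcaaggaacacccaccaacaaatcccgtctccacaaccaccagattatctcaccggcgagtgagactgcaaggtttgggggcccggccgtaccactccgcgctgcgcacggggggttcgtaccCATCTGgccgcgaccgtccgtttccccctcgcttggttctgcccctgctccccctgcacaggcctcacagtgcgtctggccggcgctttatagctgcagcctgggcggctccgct
The single E-box read CATCTG, which is CAGATG on the other strand, the core that NeuroD1 and its relatives often bind. It lay 115 bp before the gene start and its centre was 12.5 bp from the summit, inside the peak. This was the E-box nearest to a summit among the upstream sequences shown.

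UCHL5 is a UCH enzyme that acts at the proteasome and in the INO80 chromatin remodelling complex. Its peak spanned bases 193059181 to 193059533 of chromosome 1. The summit was enriched 7.19-fold at a −log10 q of 10.1 and held 21 reads (13.0 to 32.1). It was above 54.1% of all peaks. UCHL5 lies on the reverse strand from 193012254 to 193060076, and the peak began 543 bp inside the gene when counted from this outermost start. RefSeq lists 3 starts for UCHL5, and the peak covered 2 of them. The summit lay 55 bp inside the gene from the nearest of these, at 193059360. The gene RO60 on the opposite strand began 79 bp from the edge of the peak, so the peak lies where both genes start.

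The sequence before the UCHL5 start at 193059360 is shown because the peak covers this inner start and not the outermost one. It is on the reverse strand at chr1:193059361-193059610, and the peak covered bases 78 to 250.
UCHL5: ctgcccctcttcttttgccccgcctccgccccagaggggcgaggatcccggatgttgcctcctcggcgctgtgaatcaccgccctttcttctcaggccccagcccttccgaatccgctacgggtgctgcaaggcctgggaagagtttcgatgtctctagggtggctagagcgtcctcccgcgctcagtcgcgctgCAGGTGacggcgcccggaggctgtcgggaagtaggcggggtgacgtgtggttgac
The single E-box read CAGGTG, lay inside the peak and had its centre 107.5 bp from the summit.

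The peaks at the JAMM genes MPND and EIF3F lay on either side of the median fold enrichment of all peaks. The peak of MPND, a JAMM-domain gene, spanned bases 4342819 to 4343146 of chromosome 19. It was enriched 7.21-fold at a −log10 q of 8.04, with 16 reads at the summit (9.15 to 26.0). MPND begins at 4343562 on the forward strand, and the summit lay 654 bp upstream. No other RefSeq gene lay within 3 kb of this peak. EIF3F is a subunit of the translation initiation factor eIF3. Its peak, at bases 7987053 to 7987198 of chromosome 11, was enriched 6.75-fold at a −log10 q of 6.22, with 13 reads (6.92 to 22.2). The summit lay 178 bp before the gene start at 7987337, and no other gene lay within 3 kb. By fold enrichment the peaks ranked 2777 and 3173 of 6183, near the middle of the list.

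The peaks with the lowest fold enrichment lay at JOSD2, MINDY2 and CYLD. JOSD2 is a small Josephin enzyme related to the ataxin-3 gene product. Its peak, at bases 50511428 to 50511573 of chromosome 19, was enriched 5.79-fold at a −log10 q of 4.24, with 11 reads (5.49 to 19.7). The summit lay 326 bp upstream of the start at 50511191 on the reverse strand. This peak overlapped the non-coding gene LOC124904747 and lay 30 bp from the end of ASPDH. Its summit was 99 bp from the start of LOC124904747 on the other strand, nearer than to the start of JOSD2. MINDY2 prefers K48-linked chains, the kind that marks proteins for the proteasome. Its peak, at bases 58771258 to 58771429 of chromosome 15, was enriched 5.59-fold at a −log10 q of 4.62, with 13 reads (6.92 to 22.2), and the summit lay 42 bp after the start. The divergent transcript MINDY2-DT lay 284 bp from it.

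CYLD is a tumour suppressor that cuts K63-linked and linear chains and restrains NF-κB signalling. Its peak, at bases 50741919 to 50742072 of chromosome 16, was the weakest of the 7. It was enriched 4.25-fold at a −log10 q of 2.47, with 12 reads (6.20 to 21.0) where the background was 2. Of all peaks, 4.12% had a lower fold enrichment. The peak ended 14 bp before the gene start at 50742086, and its summit lay 137 bp before it. The antisense gene CYLD-AS1 spans the peak. The −log10 q values of EIF3F, JOSD2, MINDY2 and CYLD were below the median of 7.67 over all peaks, and those of UCHL1, UCHL5 and MPND were above it.

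Over the 7 peaks the median fold enrichment was 6.75, with a lowest value of 4.25 and a highest of 11.1. The median over all peaks was 6.79, and over the highest peak of each protein-coding gene with a peak it was 7.23. The intervals of all 7 overlapped one another, since even the upper bound of CYLD, 7.18, lay above the lower bound of UCHL1, 7.13. These intervals cover counting error only, because reads copied by PCR are not independent.

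The upstream sequences of CYLD, EIF3F and MINDY2 are shown to compare their E-boxes with that of UCHL1. They are the 250 bases before each gene start on the forward strand, at chr16:50741836-50742085, chr11:7987087-7987336 and chr15:58771052-58771301, again with E-boxes in capitals. The peak covered bases 84 to 237 at CYLD, 1 to 112 at EIF3F and 207 to 250 at MINDY2.
CYLD: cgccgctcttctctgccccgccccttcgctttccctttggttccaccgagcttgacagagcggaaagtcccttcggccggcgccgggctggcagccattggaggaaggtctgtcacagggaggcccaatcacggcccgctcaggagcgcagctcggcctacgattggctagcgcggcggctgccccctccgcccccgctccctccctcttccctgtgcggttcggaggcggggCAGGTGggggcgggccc
EIF3F: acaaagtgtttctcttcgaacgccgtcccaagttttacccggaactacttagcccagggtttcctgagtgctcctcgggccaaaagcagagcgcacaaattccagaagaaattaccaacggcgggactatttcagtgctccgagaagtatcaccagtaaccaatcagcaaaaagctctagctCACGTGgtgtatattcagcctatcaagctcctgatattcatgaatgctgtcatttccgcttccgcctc
MINDY2: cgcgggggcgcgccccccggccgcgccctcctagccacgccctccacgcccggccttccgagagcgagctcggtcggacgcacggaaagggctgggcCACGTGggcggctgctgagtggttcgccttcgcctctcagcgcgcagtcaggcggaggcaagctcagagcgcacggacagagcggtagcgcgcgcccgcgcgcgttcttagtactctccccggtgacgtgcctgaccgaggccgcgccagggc
Each held 1 E-box, which read CAGGTG at CYLD and CACGTG at EIF3F and MINDY2, the form known for MYC family proteins. This upstream E-box lay outside the peak, or across its edge at CYLD. Its centre was 122.5 bp from the summit at CYLD, 112.5 bp at EIF3F and 192.5 bp at MINDY2. The same stretch before JOSD2 held no E-box, and the peak covered 14 of its bases. MINDY2 held a further E-box, CAGCTG, which is not in the bases shown and reached into the 50 bases after the start. The MINDY2 peak ran from 44 bp before to 127 bp after the start and so covered this CAGCTG.

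RefSeq promoters of 300 bases, from 250 before to 50 after a start, were at hand for 28 of the 38 members. At the gene start itself there were 24, of which 17 held CANNTG (70.8%), beside 65.1% of 22078 promoters of protein-coding genes. Those 22078 cover every listed start, inner ones included, so the 2 sets are not fully alike. By peak, 5 of 7 members with one within 3 kb and 12 of 17 members without one held the motif. The gene-start promoters of UCHL5 and MPND did not themselves overlap a peak. CAGATG or CATCTG stood in 4 of the 24 promoters (16.7%, against 12.2% of all) and CAGCTG in 2 (8.33%, against 3975 of the 22078). CANNTG and CAGCTG read alike on both strands, and CAGATG and CATCTG are reverse complements, each a case of CANNTG. Of the 7 members with a peak, UCHL1 held CATCTG and MINDY2 held CAGCTG. Across all protein-coding genes, the 2436 promoters that overlapped a peak held CANNTG in 56.2% of cases and the 19642 others in 66.2%, and for CAGATG or CATCTG the shares were 8.21% and 12.7%. The median GC content was 68.0% in the promoters with a peak and 62.3% in all, and its part in these shares was not tested. A match is a description of the letters and not evidence of binding.

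Several of the bound starts faced another gene. An opposite-strand gene start within 1 kb upstream was found at 3 of the 7 members with a peak (UCHL1, JOSD2 and MINDY2) and at 4 of the 21 members without a peak whose strand was listed (OTULIN, UCHL3, BRCC3 and MINDY1). These are 42.9% and 19.0%, beside 23.1% of all protein-coding genes with a peak and 15.8% of those without one. Read the other way, 29.5% of protein-coding genes with such a neighbour and 20.7% of the others had a peak. Only the outermost start of each gene was used for these counts. UCHL5 was therefore not counted, since RO60 starts at 193059612, inside its body. That RO60 start does lie within 1 kb upstream of the inner UCHL5 start at 193059360, which the peak covers. The feature of facing starts was looked at after the peaks of the members had been seen.

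The OTU class has no NeuroD1 peak in this list, though its members span bodies from 1.72 to 395 kb. OTUD7A, the longest gene of the 38, lies on chromosome 15 and its nearest peak was 1290 kb away. The class holds OTUB1, which also blocks ubiquitin transfer by binding E2 enzymes, and OTULIN, which cuts linear chains. It also holds TNFAIP3, the NF-κB inhibitor A20, VCPIP1 and YOD1, which work with the ATPase VCP, and ZRANB1. The nearest peak lay 29.4 kb from OTUD6B, 46.6 kb from OTUB1, 82.2 kb from OTUD7B and 155 kb from OTULIN. At OTUD1, OTUD3, OTUD4, YOD1, ZRANB1 and TNFAIP3 it lay between 359 and 903 kb away. It was over 1 Mb away at OTUB2, OTUD5, OTUD6A, OTUD7A and VCPIP1. The median over the 15 genes was 439 kb.

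OTUD5 and OTUD6A lie on chromosome X, where 2.71% of protein-coding genes had a peak. At the shares of their own chromosomes, a background chosen after the data were seen, 2.68 OTU genes and 7.08 of all 38 members would hold a peak. ATXN3L and BRCC3 lie on chromosome X as well and had none. With the 200 genes nearest in length in place of the bins, the share was 21.8% for the OTU class and 21.2% for all members.

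In the other classes, 16 genes had no peak within 3 kb. They were UCHL3 and BAP1, the nuclear UCH enzyme that acts on histone H2A, the Josephin genes ATXN3, ATXN3L and JOSD1, and MINDY1, MINDY3, MINDY4 and ZUP1. Among the JAMM genes they were BRCC3, STAMBP, STAMBPL1, MYSM1, COPS5, COPS6 and EIF3H. BRCC3 cuts K63-linked chains, STAMBP acts on endosomes, MYSM1 acts on histone H2A, and COPS5 is the catalytic subunit of the COP9 signalosome. The nearest peak lay 9.28 kb from COPS6, 12.3 kb from ZUP1 and 15.1 kb from ATXN3. At COPS5, by contrast, it was 1897 kb away. Over the 31 members without a peak the median distance was 340 kb (lowest 9.28, highest 3963 kb), beside 168 kb over the 15754 protein-coding genes without one. Within 50 kb of the gene, 5 of the 31 had a peak (16.1%, against 23.6% of those genes).

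The genes with a USP name were counted in the same way, with CYLD kept among the 38 members. Leaving out the USP17L repeat genes, 19 of 51 had a peak (37.3%), where 25.2% would at the share of genes of like length. Their median body was 71.8 kb, against 34.8 kb in the 38 members. The 25 peaks at USP genes had a median fold enrichment of 6.27, beside 6.75 at the members. The difference between the USP genes and the members was not tested.

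Genes that work with the members were counted from 8 lists of 68 genes, none of which is a member. Of these 68, 29 had a peak (42.6%), beside 21.4% of all protein-coding genes and 22.6% at the share of like length. By chromosome the share would be 22.4%. The lists were chosen with earlier results of these data known, and their counts were not tested. The lists are also not independent in position. Peaks of NPLOC4, HGS, GPS1 and FOXK2, which belong to different lists, lay between bases 81637064 and 82519789 of chromosome 17.

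Genes with a peak were found in each list. The lists are short, with 3 to 13 genes each. At the share of protein-coding genes of like length, between 18.9% and 25.9% of the genes of a list would hold a peak. In the COP9 signalosome, which removes NEDD8 from cullin ligases and holds COPS5 and COPS6, 4 of 8 partner genes had one (COPS2, COPS4, COPS7B and GPS1). In eIF3, to which EIF3F and EIF3H belong, it was 1 of 12, namely EIF3B with a fold enrichment of 10.3. Of the partners of BAP1, 5 of 10 had a peak. FOXK1, a forkhead factor that brings BAP1 to DNA, had a fold enrichment of 28.8 with 61 reads at the summit (46.7 to 78.4), 60 bp before its start. FOXK2, its close relative, had a fold enrichment of 25.8 with 78 reads (61.7 to 97.3), 155 bp before its start. ASXL1, ASXL3 and HCFC1 had lower values of 5.89, 8.20 and 5.79. BAP1 itself had its nearest peak 160 kb away.

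In the remaining lists, between 46.2% and 66.7% of the genes had a peak, beside 20.1% to 25.1% at the share of like length. For VCP and its cofactors, 6 of 13 genes had a peak, with VCP at 6.75 and NSFL1C at 12.05. Of the partners of OTULIN and CYLD in linear ubiquitin signalling it was 4 of 8, including RNF31, the catalytic subunit of the ligase that builds linear chains, at 7.19. Of the proteasome and INO80 partners of UCHL5 it was 3 of 6, with INO80 at 9.16, ADRM1 at 5.79 and PSMD1 at 3.93. In the ABRAXAS and BRISC complexes of BRCC3 it was 4 of 8. STAM and HGS, the endosomal partners of STAMBP, had peaks of 7.24 and 12.6, and they were 2 of 3 genes.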

How the data were processed

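Peaks were called by the authors on 1 NeuroD1 ChIP library of IMR-32 cells. Their processing notes name hg38, BWA 0.7.17 and MACS2 2.2.7, while the peak names carry macs3. The q threshold is not given in the sources used here. As deposited, the fold enrichment divides summit pileup by local background after adding 1 to both, −log10 p and −log10 q are those of the summit, and the score is 10 times −log10 q without its decimals. A further deposited column, fold enrichment over width, was not used.

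Gene bodies, starts and promoter sequences came from RefSeq of GRCh38.p14. Strand was listed for 15843 of 20037 protein-coding genes. ChIP reads were solved from the fold enrichment and −log10 p with the Poisson formula of MACS. The weight of 1 read was 0.98, at which summits lay on average 0.00153 reads from whole numbers (tolerance 0.02). A solution was found for 6168 of 6183 peaks, and the solver was tested on simulated data. Intervals are exact Poisson at 95%.

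The members and lists were chosen with earlier results of these data known. All 38 members are accounted for, those with a peak are described in full, and each other gene within 3 kb of such a peak is named apart from small RNAs. Partners with a peak are counted, and some are named, and 1 further list is not reported here. Promoter sequences are shown for 5 of the 6 members whose upstream bases share a peak. Alternatives were stricter peak lists, other flanks, the summit, the gene with the nearest end and other length matching. The software was Python 3.11.15 with scipy 1.17.1, pandas 2.3.3, matplotlib 3.10.9 and numpy 2.4.6.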

Additional observations from a re-analysis of the deposited data

How the results depend on the processing

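The 7 members with a peak became 4 with a −log10 q of at least 5 and 3 when the peak had to overlap the gene body, since fewer peaks or shorter regions count. They were between 5 and 8 under the other alternatives. The OTU and ZUP1 counts were 0 under all 7 alternatives. The Josephin count was 0 with the −log10 q limit, with the body alone and with the nearest end, where the UCH count was 1. The JAMM count was 0 with the body alone and the MINDY count was 0 with the −log10 q limit. The CYLD count was 0 with either limit and with the body alone. In place of 17 members with CANNTG, 4 held CAGATG or CATCTG and 2 held CAGCTG.

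The 29 partner genes with a peak became 21 with the body alone and 35 with 10 kb. Over all protein-coding genes the share also moved, to 16.0% and 25.1%. Under the other alternatives the partner count lay between 21 and 35. With the body alone, the COP9 list had 2 in place of 4, the BAP1 list 3 in place of 5 and the endosomal list 1 in place of 2. With the nearest end, the COP9 list had 2, the endosomal list 1 and the eIF3 list 0. With 10 kb the eIF3 list had 5 in place of 1, and with the −log10 q limit the UCHL5 partners had 1 in place of 3. CAGCTG, the chromosome shares, every listed start and the counts without chromosome X were chosen after the data were seen. No paired analysis was possible because the peaks come from 1 ChIP library alone, and so no value has a replicate check.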

Other observations

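Peaks further than 3 kb but within 50 kb of a member lay at other genes. The strongest was on chromosome 4 from 41214473 to 41214771, 42.2 kb from UCHL1, with a fold enrichment of 21.7, 44 ChIP reads and rank 70 of all peaks. It lay at APBB2, as did a weaker peak with a fold enrichment of 6.27. Near MPND there were peaks at TMIGD2 (13.0) and at SH3GL1 and CHAF1A (9.05). The peak nearest to COPS6 lay at MCM7 and AP4M1 (6.79), that nearest to ATXN3 at NDUFB1 and CPSF2 (8.20), that nearest to ZUP1 at KPNA5 (8.68), that nearest to OTUB1 at MACROD1 and FLRT1 (6.36) and that nearest to OTUD6B at PIP4P2 (6.98). The values in brackets are fold enrichments, and these genes were named after their values were seen.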
